A study of Mus musculus with 4 samples.

Results

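The genes described here encode the proteins of the cytosolic ribosome. They were taken by symbol: names of the form Rpl or Rps followed by a number and optional letters, with Rplp0, Rplp1, Rplp2 and Rpsa added and Rps27l left out. The rule found 85 genes among the 54838 listed, 53 of the large subunit and 32 of the small subunit. GENCODE M21 classes 81 of them as protein coding and 4 (Rps4l, Rpl37rt, Rpl6l and Rpl32l) as pseudogenes. The symbol rule leaves out ribosomal protein genes with other names, such as Fau, Rps3a1 and Rack1, which are described apart.

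RNA was sequenced from Hepa1-6, a mouse hepatocellular carcinoma cell line, in 2 groups of 2 libraries. NC cells carry wild-type Acvr2a, which encodes a type II activin receptor, and KO cells are subclones of the line in which Acvr2a was knocked out. No treatment or time point is named for either group. The sources used here do not say whether the KO libraries come from different subclones, or whether libraries of a group are separate cultures, so the p-values measure only the spread between these libraries, which may be technical.

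A cytosolic ribosome is built from ribosomal RNA and one set of proteins, most of them present in a single copy and the stalk proteins Rplp1 and Rplp2 in more. The small subunit reads the mRNA. The large subunit joins amino acids and carries the stalks that bring in elongation factors and release spent tRNA. Most ribosomal protein mRNAs begin with a C followed by an unbroken run of C and T, the TOP sequence, through which mTORC1 and Larp1 control their translation. Liver cells make ribosomes in step with growth and nutrient supply.

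Library totals lay between 11597923 and 13910582 counts. The RNA of the targeted gene did not separate the groups: Acvr2a was counted at 81 and 108 in the NC libraries against 75 and 97 in the KO libraries, with a log2 fold change of -0.21 (SE 0.20, edgeR quasi-likelihood adjusted p = 0.433). Group names therefore follow the labels. Of 9 hepatocyte-lineage markers 8 were tested, with 2 higher (Alb, Trf) and 3 lower (Afp, Hnf4a, Foxa2) in KO, and Ttr, a transport protein of mature liver, was counted at most once per library. Of 11 markers of other cell types, Cd3e, Cd3d and Cdh5 had no count in any library, and Ptprc had at most 2. The fibroblast-type markers Col1a1 and Pdgfra were higher in KO. The summed level of the 11 markers, nearly all of it Dcn, was 1454 and 1487 CPM in NC and 1666 and 1713 CPM in KO, and its part in the results was not tested. CPM are counts scaled to the same total in every library, here by library total and in the gene comparisons by the TMM-scaled total.

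The sequence around the transcription start was read for 59 of the tested ribosomal protein genes from RefSeq (GRCm38.p6), as 50 bases, 25 before the start and 25 from it on. The windows printed here were chosen to show genes that were lower in KO with a long run of C and T (Rplp2, Rpl14, Rpl15, Rpl13a) and with a short one (Rpl24, Rps13), the pair that was higher (Rpl10a, Rpl36a), and the gene with the longest run, which was not called (Rpl7a). Capitals mark the longest unbroken run of C and T on the gene's strand, or the earliest of equal runs, as in Rpl10a, where another ends the window. They lie at chr7:141447626-141447675 (plus strand) for Rplp2, chr9:120571492-120571541 (plus) for Rpl14, chr14:18270962-18271011 (minus) for Rpl15, chr7:45128721-45128770 (minus) for Rpl13a, chr16:55966250-55966299 (plus) for Rpl24 and chr7:116334166-116334215 (minus) for Rps13. Those of Rpl10a, at 1 of its 2 RefSeq starts, Rpl36a and Rpl7a lie at chr17:28328446-28328495, chrX:134585629-134585678 and chr2:26910782-26910831, all on the plus strand.
Rplp2: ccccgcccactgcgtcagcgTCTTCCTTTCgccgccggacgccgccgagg
Rpl14: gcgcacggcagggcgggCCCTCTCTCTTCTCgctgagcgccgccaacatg
Rpl15: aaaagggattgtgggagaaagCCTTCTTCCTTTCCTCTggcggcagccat
Rpl13a: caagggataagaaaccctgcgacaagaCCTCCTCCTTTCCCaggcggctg
Rpl24: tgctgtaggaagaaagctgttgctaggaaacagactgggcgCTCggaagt
Rps13: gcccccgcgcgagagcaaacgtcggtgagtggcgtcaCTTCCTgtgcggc
Rpl10a: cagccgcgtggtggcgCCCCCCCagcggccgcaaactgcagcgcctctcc
Rpl36a: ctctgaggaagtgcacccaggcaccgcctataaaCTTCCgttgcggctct
Rpl7a: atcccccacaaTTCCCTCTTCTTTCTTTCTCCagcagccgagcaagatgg

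A run of at least 8 pyrimidines was found in 27 of the 59 windows (45.8%), against 19.4% of the windows of 27025 RefSeq genes. The letters CTTTCC stood on the gene's strand in 16.9% of the ribosomal protein windows and 2.42% of all windows (a long run can contain them). In the wider promoter, 250 bases before to 50 after the start and on both strands, CCGGAAG, a core of ETS-factor sites, was found in 22 of 59 (37.3%) against 9.12% of all promoters. AAGATGGC, a core of YY1 sites, was found in 6.78% against 2.88%, and TATAAA in 8.47% against 14.2%. By outcome, the run of 8 or more stood in 7 of the 12 genes with a window that were lower in KO, 0 of the 2 that were higher and 20 of the 45 that were not called. So both long and short runs occur among the genes that were lower. Rplp1, lower in KO, had no entry among the sequences used. A match to letters is a description and not a binding site. The longest run can lie before the start and so outside the mRNA, so its length does not measure a TOP sequence.

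These genes were among the most abundant in the cells. On the deposited TPM scale (each gene's level per length, scaled to the same total in every library), they took 18.0% and 17.6% of each library in NC and 18.5% and 16.7% in KO. In counts, where short mRNAs weigh less, they took 7.15% and 6.69% of the NC libraries and 6.93% and 6.47% of the KO libraries. The groups overlapped: the share was 6.92 ± 0.33% (SD, n = 2) in NC and 6.70 ± 0.33% in KO, a difference of -0.22 points (exact two-sided permutation test p = 0.667, where 2 against 2 cannot go below 0.333). Wilson 95% binomial intervals of each share reach at most 0.0148 points to either side and cover counting error only, so depth did not limit this comparison. Without NC 2 the difference was -0.45 points, and without NC 1 it was 0.012 points; without KO 1 and KO 2 it was -0.45 and 0.012 points. The large subunit took 4.25%, 3.96%, 4.17% and 3.86% of counts in NC 1, NC 2, KO 1 and KO 2, and the small subunit 2.91%, 2.73%, 2.76% and 2.61%.

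Single genes differed far more from each other than between groups. The median level of the 80 tested genes was 1515 TPM, from 11.6 TPM for the pseudogene Rpl6l to 14921 TPM for Rps26, whose protein lies by the mRNA exit channel. Rps26 stood at 13481 and 14450 TPM in NC and 16546 and 15206 TPM in KO. After it came Rpl41, the smallest ribosomal protein, with a mean of 8491 TPM, and Rps2, by the mRNA entry channel, with 8146 TPM. Rpl38 (6785 TPM), Rps27 (5429 TPM) and Rps10 (4162 TPM) followed among the genes named by rule, then Rplp0, the base of the stalk, with 3919 TPM. On this scale KO lay above NC for Rps26 and below it for Rpl41 and Rps2. The levels of the genes relative to each other were nearly the same in every library. Across the 80 genes, which are not independent replicates, the Pearson correlation of log2 TPM lay between 0.989 and 0.996 for the 6 pairs of libraries. The 80 include Rpl6l and Rps27rt (46.4 TPM), far below the lower quartile of 844 TPM, which widen the spread. The SD of log2 TPM between genes was 1.49 to 1.55 in each library, while the median absolute log2 fold change between the groups was 0.13. TPM rests on effective lengths that differ by library for short mRNAs: that of Rplp2 was 294 bases in NC 1 and 343 in NC 2, and that of Rpl37rt 86.0 and 78.3, so the fold changes given next come from counts.

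**Figure D1:**
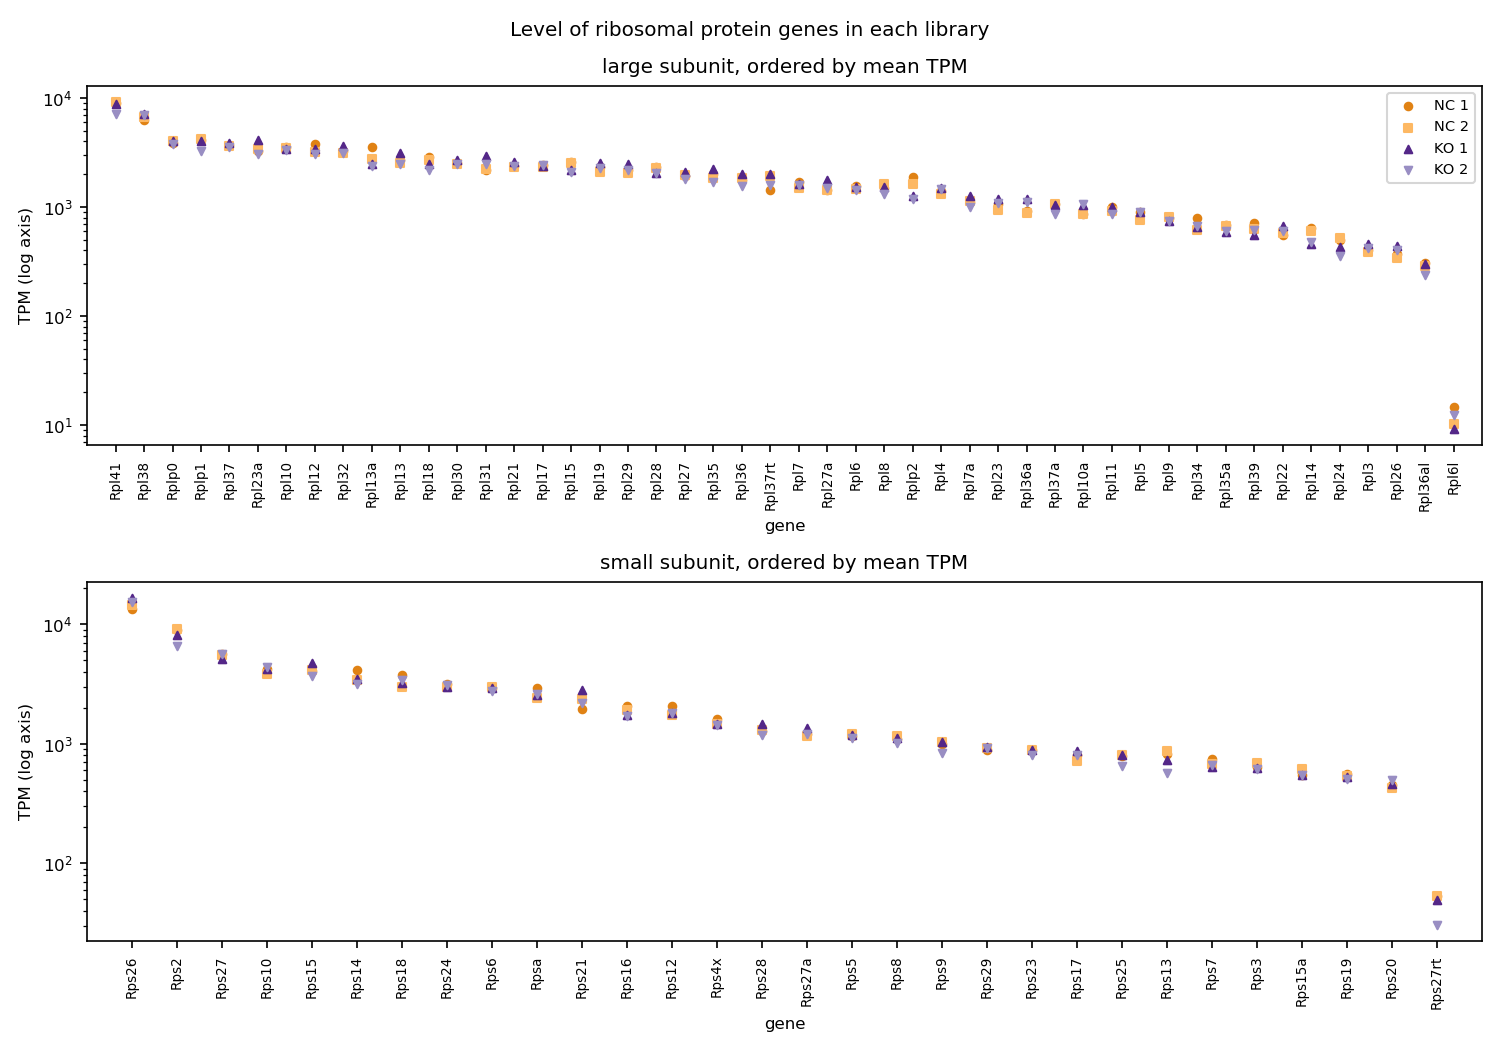
Level of 78 tested ribosomal protein genes in TPM (log axis), one point per library (2 NC, 2 KO), large subunit above and small subunit below, each ordered by mean. The 4 libraries nearly coincide within a gene, and the genes run from 11.6 TPM (Rpl6l) to 14921 TPM (Rps26).

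In KO, 14 ribosomal protein mRNAs fell and 2 rose. With edgeR's quasi-likelihood test and a threshold of 0.05 on the adjusted p, 37.9% of all 12510 genes tested were called, and of the 80 ribosomal protein genes 16 were. The 14 that were lower make 17.5% of the 80, against 18.2% lower among all genes, and the 2 that were higher make 2.5%, against 19.7%. The median log2 fold change was -0.09, with the quartiles at -0.19 and 0.04; over all genes the median was -0.0037 and the quartiles lay at -0.25 and 0.31. The highest value was 0.27, and Rplp2, at -0.54, had a KO level of 0.688 of the NC level. For 70 of the 80 the 95% interval lay within 0.5 of 0 on the log2 scale. The direction of the family's median depended on gene length: with the trend of fold change on effective length removed, the median was 0.05 and 9 genes were higher and 5 lower, beside 36.3% of all genes called. Other settings called 15 ribosomal protein genes with DESeq2 (25.7% of all genes), which lost Rpl39, and 16 with sequence-matched pseudogene counts added (38.5%). Scaling by library totals alone called 11 (37.0%), of which 9 were lower, with a median of -0.06. Rpl41, Rpl39, Rpl28, Rplp1 and Rps16 were lost with that scaling. Leaving out NC 1 left 9 called (27.2% of all genes), NC 2 14 (29.9%), KO 1 19 (35.0%) and KO 2 16 (27.9%).

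The subunits differed in their counts, which were not tested against each other. Of 49 large-subunit genes tested 10 fell and 2 rose (24.5% called), with a median log2 fold change of -0.07, and of 31 small-subunit genes 4 fell and 0 rose (12.9%), with a median of -0.12. At an unadjusted p under 0.05, edgeR gave 15 of 49 large-subunit and 6 of 31 small-subunit genes. Of all genes, 37.9% passed even the adjusted threshold. DESeq2 also called 0 small-subunit genes higher, where it called 13.3% of all genes higher. KO libraries both lay below both NC libraries for 16 large-subunit and 15 small-subunit genes and above them for 7 and 1; among all genes these shares were 34.7% and 34.8%, or 69.4% that did not overlap. The sign was negative in 28 of 49 large-subunit and 25 of 31 small-subunit genes. It was negative in 50.4% of all genes, and in 62.6% of other genes with an effective length under 1000 bases. With the length trend removed both medians turned positive, to 0.07 and 0.03. Without NC 1 the large-subunit median was 0.03 and its calls were 3 higher and 3 lower, while the small-subunit median was -0.05. On log2(TPM + 1) with limma, 2 large-subunit genes and 1 small-subunit gene were called, all lower, where 15.2% of all genes were called; with a pseudocount of 0.1 the counts were the same, beside 14.1%.

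**Figure D2:**
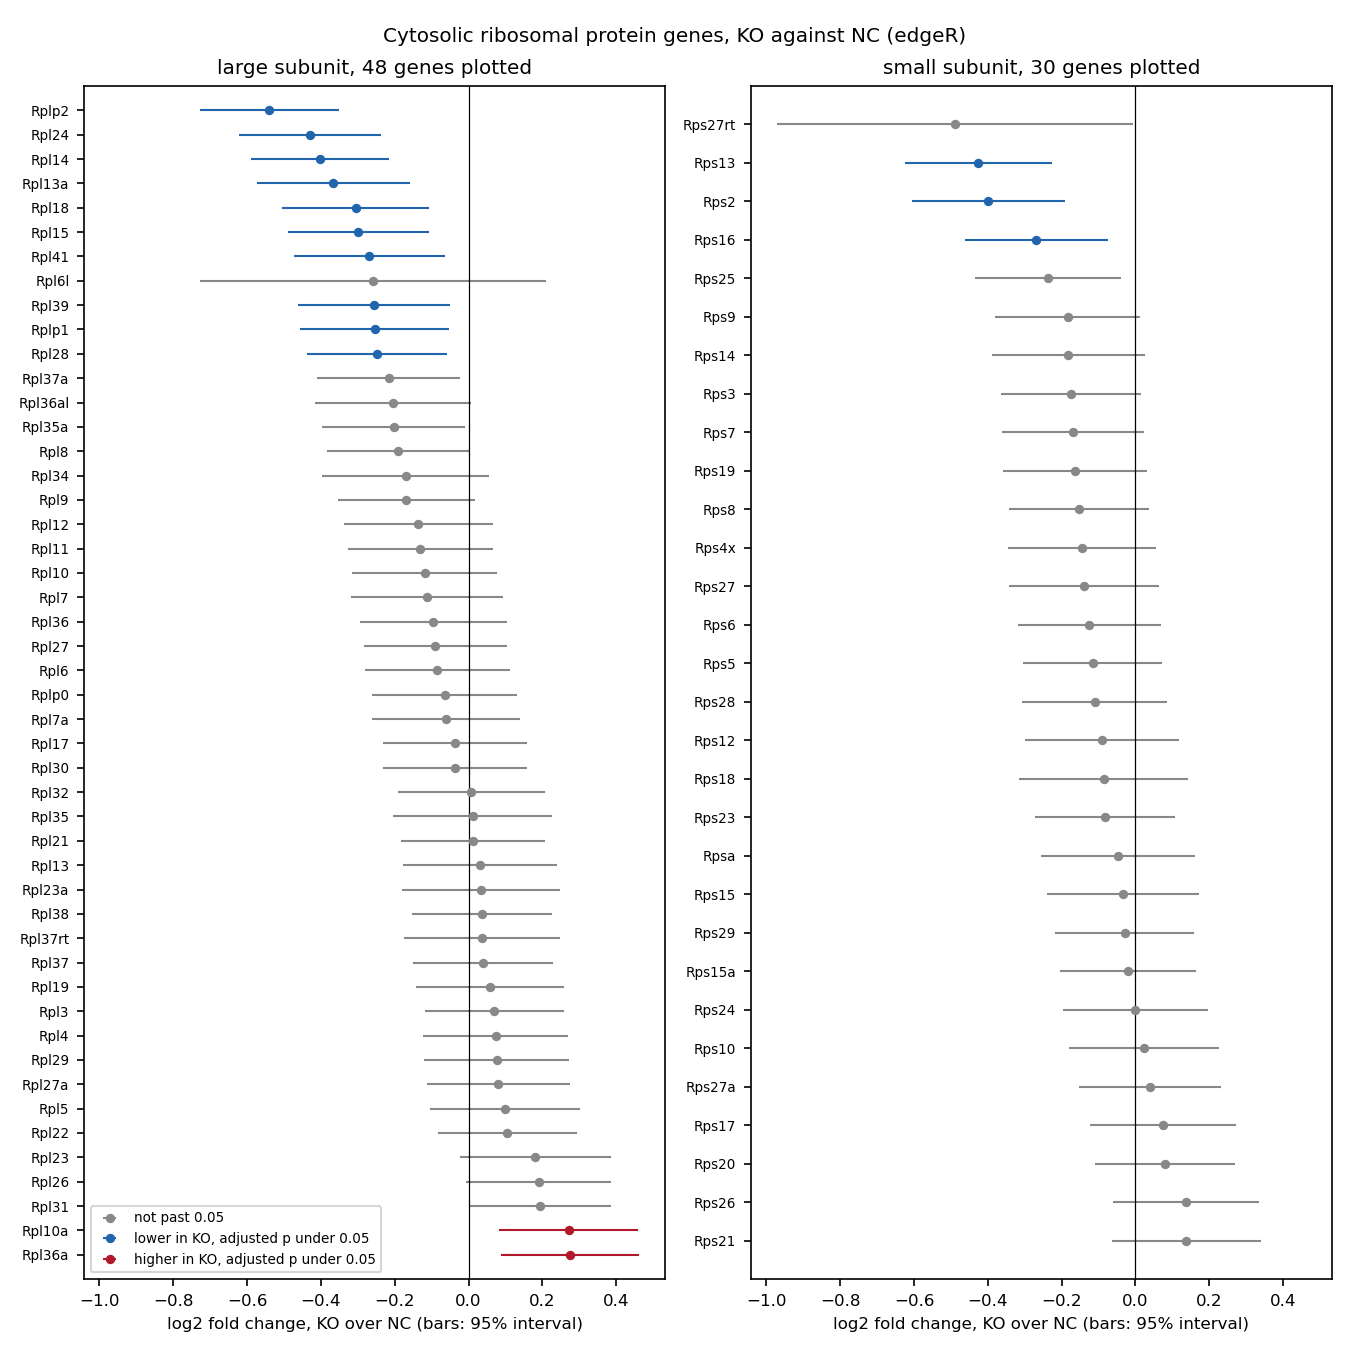
Log2 fold change, KO over NC, of 78 tested genes with the 95% interval from edgeR (large subunit left, small subunit right; blue lower, red higher, grey not past 0.05). Most intervals cross 0, and the medians over all tested genes, of -0.07 and -0.12, turn to 0.07 and 0.03 when the trend with gene length is removed.

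On log2 CPM, NC 1 had the highest median of the 4 libraries in these genes. On TPM their share was instead highest in KO 1 (18.5%) and lowest in KO 2 (16.7%). On log2 CPM, NC 1 lay above NC 2 for 72 of the 80 genes, against 50.2% of all genes. The median log2 difference was 0.12 against 0.00076. KO 1 lay above KO 2 for 56. The median deviation of the 80 genes from their 4-library means was 0.09 and -0.02 for NC 1 and NC 2, and -0.01 and -0.06 for KO 1 and KO 2, on the log2 scale. Short mRNAs of other genes moved with it: among 2152 other genes with an effective length under 1000 bases, 63.5% were higher in NC 1 than in NC 2. The part of this in the KO differences was not tested beyond leaving the library out, which left 6 genes lower and 3 higher.

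**Figure D3:**
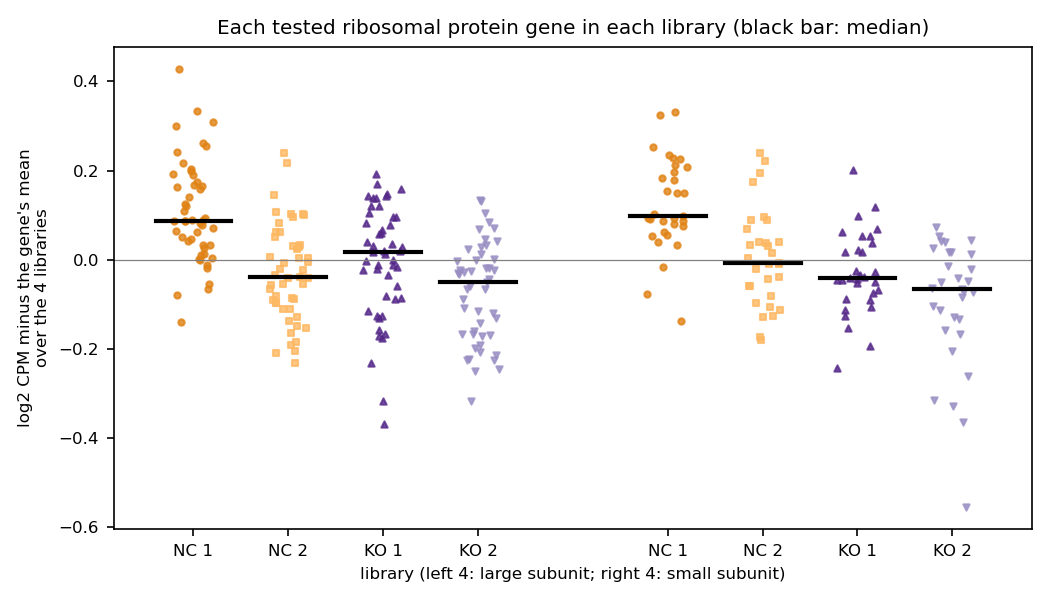
Log2 CPM of each tested gene minus its mean over the 4 libraries (points), with the median as a black bar, for the large (left 4 columns) and small subunit (right 4). The points of NC 1 sit mostly above 0 in both subunits, with a median over both of 0.09, and KO 2 has the lowest median, -0.06.

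Gene length moved with the fold change across the transcriptome. Other genes with an effective length under 1000 bases had a median log2 fold change of -0.13, and longer ones 0.02. The 80 ribosomal protein genes had a median effective length of 418 bases (82.1 to 1641), and the 75 under 1000 bases had a median log2 fold change of -0.10. Of the short other genes 36.4% were called, and of the short ribosomal protein genes 21.3%. The trend at the ribosomal protein genes' lengths was -0.16 in the median, larger than their own median of -0.09. Its source was not tested.

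**Figure D4:**
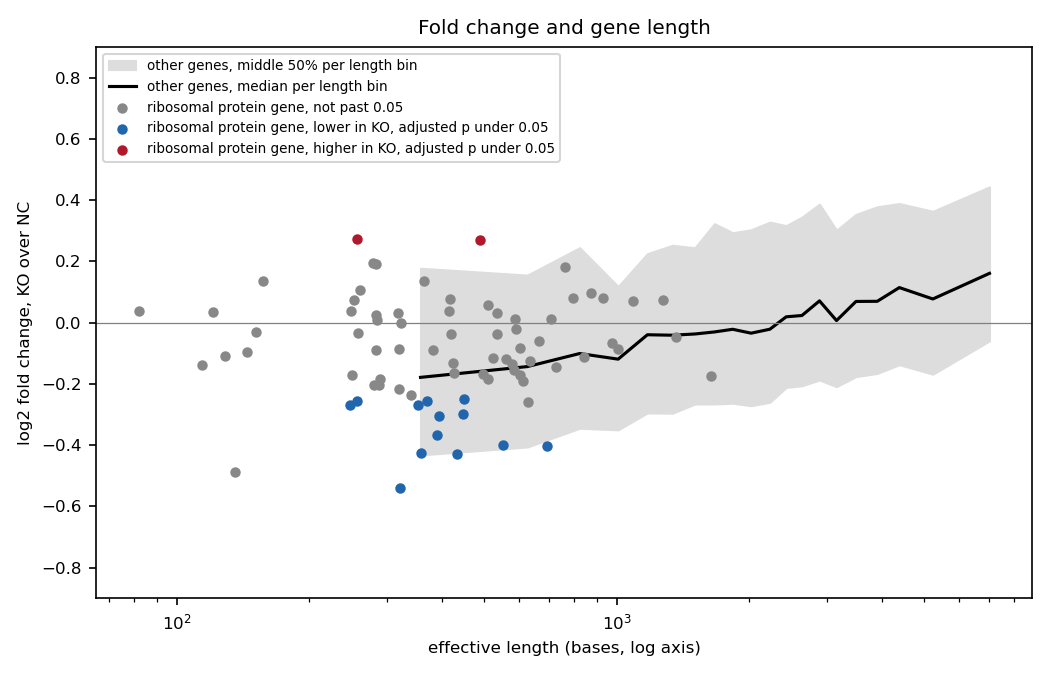
Log2 fold change, KO over NC, against effective length (bases, log axis): points are 78 ribosomal protein genes, the line is the median of other genes in bins of equal gene number and the band their middle 50%. Other genes under 1000 bases have a median of -0.13; with this trend removed the ribosomal protein median turns from -0.09 to 0.05.

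In the large subunit, Rplp2 had the largest change. Rplp2, an acidic stalk protein that recruits elongation factors, was at 517 and 496 CPM in NC and 337 and 360 CPM in KO. Both KO libraries lay well below both NC libraries, a log2 fold change of -0.54 (SE 0.09, edgeR adjusted p = 4.3e-05), or 31.2% lower. Its partner Rplp1 was at 1010 and 964 CPM in NC and 894 and 761 CPM in KO, a smaller fall of 0.25 on the log2 scale (adjusted p = 0.0411). Rplp0, which anchors both, was at 3520 and 3518 CPM in NC and 3440 and 3288 CPM in KO. Both KO libraries lay below both NC libraries, by a small margin that did not pass (-0.07, SE 0.10, 95% interval -0.26 to 0.13, edgeR adjusted p = 0.626). The differences between the 3 stalk genes were not tested. The fall of Rplp1 was not past the threshold without NC 1 (-0.23, adjusted p = 0.160), NC 2 (-0.29, 0.0604) or KO 2 (-0.15, 0.332), and Rplp2 stayed past it in all 16 alternatives, with adjusted p from 1.9e-08 to 0.0322.

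Rpl14 and Rpl24 fell by a similar amount. Rpl14, a surface protein of the large subunit, was at 402 and 373 CPM in NC and 299 and 288 CPM in KO (-0.40, SE 0.09, edgeR adjusted p = 0.000991). Rpl24, which reaches over to the small subunit as a bridge, was at 203 and 203 CPM in NC and 161 and 140 CPM in KO (-0.43, SE 0.09, adjusted p = 0.000678). In both genes the groups were well apart. Rpl14 was called in all 16 alternatives, and Rpl24 in 14, all but the pair on TPM, where its adjusted p reached 0.0857; exons of Rpl24 overlap those of Gm28037 on the same strand.

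Rpl13a, Rpl18 and Rpl15 fell by less. Rpl13a, also known for silencing inflammatory mRNAs when released from the ribosome, was at 1221 and 984 CPM in NC and 862 and 848 CPM in KO (-0.37, edgeR adjusted p = 0.00554). Rpl18 was at 1075 and 949 CPM against 855 and 783 CPM (-0.31, adjusted p = 0.0142), and Rpl15, an early-joining protein of the subunit's core, at 1080 and 1009 CPM against 860 and 838 CPM (-0.30, adjusted p = 0.0130). NC 1 was the highest library for each. Without it none of the trio passed: Rpl13a was at -0.21 (adjusted p = 0.199), Rpl18 at -0.22 (0.175) and Rpl15 at -0.26 (0.106). Rpl18 was also lost without KO 2 (-0.25, 0.0716). Exons of Rpl18 overlap Sphk2, and those of Rpl15 overlap Nkiras1, on the other strand.

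Rpl41, Rpl39 and Rpl28 lay nearest the threshold with Rplp1. Rpl41 was at 2143 and 1988 CPM in NC and 1847 and 1580 CPM in KO (-0.27, edgeR adjusted p = 0.0346). Rpl39, which lines the exit tunnel of the new protein, was at 248 and 206 CPM in NC and 176 and 204 CPM in KO (-0.26, adjusted p = 0.0443), so NC 2 and KO 2 nearly met. Rpl28 was at 969 and 946 CPM against 787 and 825 CPM (-0.25, adjusted p = 0.0363). Each call was lost when 1 library was left out: Rpl41 without NC 1 (-0.22, adjusted p = 0.173) or KO 2 (-0.16, 0.255), Rpl39 without NC 1 (-0.12, 0.495) or KO 1 (-0.16, 0.258), and Rpl28 without NC 1 (-0.24, 0.138), NC 2 (-0.26, 0.0887) or KO 1 (-0.21, 0.115). Just outside the threshold stood Rpl37a (-0.22, adjusted p = 0.0700) and Rpl35a (-0.20, adjusted p = 0.0902); Rpl37a passed without KO 1 (-0.32, 0.0121) and Rpl35a without KO 2 (-0.28, 0.0398).

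The pair that rose sits on the side of the ribosome where spent tRNA leaves. Rpl10a, the protein of the L1 stalk, was at 397 and 367 CPM in NC and 462 and 460 CPM in KO (0.27, SE 0.09, edgeR adjusted p = 0.0205). Rpl36a, near the tRNA exit site, was at 225 and 204 CPM in NC and 260 and 258 CPM in KO (0.27, SE 0.09, adjusted p = 0.0187). The KO libraries agree closely and lie above both NC libraries in each. Without NC 2, the lower NC library, neither passed (Rpl10a 0.22, adjusted p = 0.184; Rpl36a 0.20, 0.220), and with the length trend removed both were larger, with log2 fold changes of 0.42 and 0.44. Rpl36al, the near copy of Rpl36a, was at 83.6 and 72.9 CPM in NC and 73.6 and 62.1 CPM in KO, of negative sign and not called (-0.20, adjusted p = 0.120); without KO 1 it was (-0.33, 0.0178).

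In the small subunit, Rps13 and Rps2 fell by a similar amount and Rps16 by less. Rps13, a protein that binds ribosomal RNA, was at 276 and 278 CPM in NC and 227 and 185 CPM in KO (-0.43, SE 0.10, edgeR adjusted p = 0.00106), and was called in 14 alternatives, all but the pair on TPM. Rps2 was at 4696 and 4521 CPM in NC and 3771 and 3218 CPM in KO (-0.40, SE 0.10, adjusted p = 0.00265). It was not called on log2(TPM + 1) (-0.30, adjusted p = 0.192) or with the length trend removed (-0.25, 0.0530). Rps16, whose tail reaches the decoding site, was at 689 and 604 CPM against 529 and 544 CPM (-0.27, adjusted p = 0.0267) and was lost without NC 1 (-0.18, 0.287) or KO 1 (-0.25, 0.0630). Just outside stood Rps25 (-0.24, adjusted p = 0.0539), which passed without KO 1 (-0.38, 0.00204), and Rps27rt (-0.49, adjusted p = 0.102), a retrocopy of Rps27 with 79, 88, 75 and 51 counts, which passed without KO 1 (-0.81, 0.0254).

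**Figure D5:**
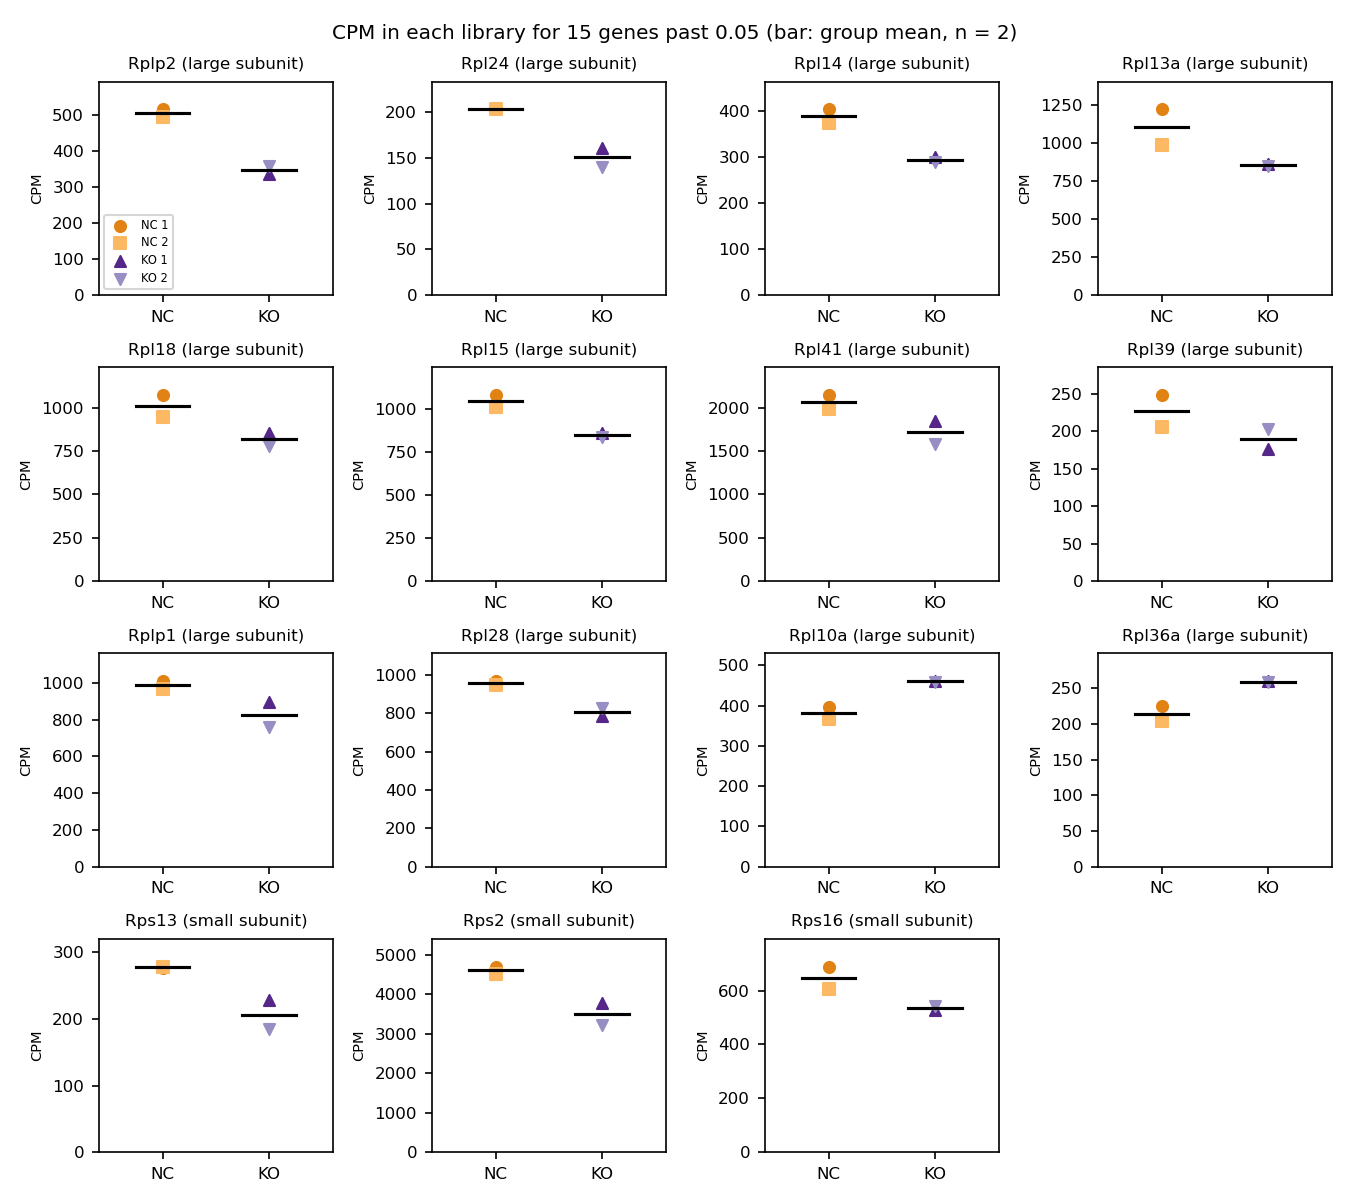
CPM in each library for 12 large-subunit and 3 small-subunit genes past an adjusted p of 0.05, each panel from 0, with the group mean (n = 2) as a bar. Both KO libraries lie below both NC libraries in 13 genes and above them in Rpl10a and Rpl36a; the fall runs from 0.25 to 0.54 on the log2 scale, and 9 of the 13 lose their call with the length trend removed.

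Rpl5, Rpl11, Rpsa and Rps6, also known for duties outside the ribosome, did not pass. Rpl5 and Rpl11, which with the smallest large-subunit RNA bind Mdm2 and so stabilise p53, had log2 fold changes of 0.10 (SE 0.10, edgeR adjusted p = 0.460) and -0.13 (SE 0.10, adjusted p = 0.296). Rpl5 was at 718 and 596 CPM in NC and 688 and 719 CPM in KO, and Rpl11 at 404 and 352 CPM against 364 and 327 CPM, so the groups overlapped in both. Rpsa, the laminin-receptor precursor, was at 3551 and 2975 CPM in NC and 3142 and 3173 CPM in KO (-0.05, SE 0.10). Rps6, the target of the S6 kinases, had -0.12 (SE 0.09, 95% interval -0.32 to 0.07). Rps26, the most abundant, had 0.14 (SE 0.10, 95% interval -0.06 to 0.34) and was called higher once the length trend was removed (0.30, adjusted p = 0.0176).

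Paralogs known from single tissues had no counts. These were Rpl3l of striated muscle and Rpl10l and Rpl39l of testis. With the pseudogenes Rps4l and Rpl32l they stood at 0 in every library, which allows up to 3 counts, or 0.216 to 0.259 CPM. They make up the 5 genes under the filter on low counts. Their common forms were expressed. Rpl39 was among the genes that fell, as given above, and the others did not pass: Rpl3 was at 414, 380, 422 and 410 CPM in NC 1, NC 2, KO 1 and KO 2, Rpl10 at 1889, 1726, 1631 and 1696 CPM, and Rps4x at 1102, 942, 911 and 937 CPM. Rpl22 was at 138, 132, 148 and 143 CPM (0.11, edgeR adjusted p = 0.385), and its partner Rpl22l1, which it is known to repress, was at 15.0, 11.6, 9.72 and 11.7 CPM (-0.30, SE 0.17, adjusted p = 0.160). Rps27 had -0.14 (adjusted p = 0.283) and Rps27l, a p53 target, -0.30 (SE 0.13, adjusted p = 0.0643), which passed without NC 2 (-0.43, 0.0267); Rps27 passed without KO 2 (-0.27, 0.0464). Rpl7 and Rpl7l1 had -0.11 and 0.18, and neither passed.

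By position, the genes that fell were most numerous on chromosome 7. This was noticed after the values were seen and is given without a test. Of 14 tested ribosomal protein genes there, 7 fell, Rplp2, Rps13, Rpl13a, Rpl18, Rps16 and Rpl28 among them, with a median log2 fold change of -0.22, and of the 66 on other chromosomes 7 fell, with a median of -0.07. Other genes of chromosome 7 had a median of -0.05, with 23.9% lower. Rpl13a (chr7:45125558-45128761, GRCm38, minus strand) and Rpl18 (chr7:45715457-45720836, plus strand) lie in the same region. Among the 43 other tested genes within 500000 bases of Rpl13a, 9 fell and 12 rose, with a median of -0.05. Exons of Rpl13a overlap Snord33, Mir5121 and Gm45713 on the same strand.

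Processed pseudogenes that match ribosomal protein genes in sequence were assigned expected counts, which RSEM shares among similar genes. Such a count does not show that the pseudogene itself was transcribed. For example, Rpl27-ps3 and Gm11518, which both match Rpl27 at 100% identity, were given equal values in every library. By sequence, 293 pseudogene rows with a count matched 69 of the ribosomal protein genes at 90% identity or more over at least 70% of the pseudogene, and they held 0.174% to 0.189% of each library. The median member had 0.59% of its summed counts in such rows, but 5 had over 10%: Rpl26 (82.5%), Rpl34 (51.7%), Rpl3 (39.5%), Rps7 (32.0%) and Rpl23a (12.6%). For these the level of the gene itself is uncertain. Rpl26 itself had 1134 and 1189 counts in the NC libraries and 1417 and 1404 in the KO libraries, while its matched rows, mostly Gm15772 at 99.5% identity, held 5783, 5670, 6193 and 6653. Adding them moved the log2 fold change of Rpl26 from 0.19 to 0.09 and that of Rps7 from -0.17 to -0.21, with edgeR adjusted p = 0.505 and 0.0690. Among the 16 called genes the largest shares in pseudogene rows were those of Rpl15 (2.99%), Rps2 (2.22%) and Rpl24 (2.03%), and adding all rows left the same 16 called.

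The 7 ribosomal protein genes outside the symbol rule had a median log2 fold change of -0.05, with 1 lower and 0 higher, in edgeR. At an unadjusted p under 0.05 these were 2 and 0, and with DESeq2 1 and 0. Among all genes 18.2% were lower and 19.7% higher in edgeR, and 12.4% and 13.3% in DESeq2. With so few genes, the set is not shown to stand apart. Fau, which encodes the small-subunit protein eS30 fused to a ubiquitin-like domain, went from 420 ± 8.55 to 358 ± 18.7 CPM (SD, n = 2; -0.23, edgeR adjusted p = 0.0461). It passed in 8 of 16 alternatives and not without NC 1 (-0.26, 0.1004), NC 2 (-0.21, 0.192) or KO 2 (-0.18, 0.205). Rps3a1 and Rack1 had -0.05 and 0.0073, neither past the threshold.

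A list of translation factors and other genes whose mRNAs carry a TOP sequence held genes that fell and genes that rose. Of 17 listed genes 4 rose and 5 fell, with a median of 0.04, beside 19.7% higher and 18.2% lower among all genes. The 5 that fell are translation factors and a histone chaperone: Eef1d (-0.61, edgeR adjusted p = 1.8e-05) and Eef1g (-0.49, 0.000156), subunits that recharge elongation factor 1A, Eif3f (-0.47, 0.000366) and Eif3e (-0.33, 0.00941) of initiation factor 3, and Nap1l1 (-0.26, 0.0253). Eef1g went from 1370 ± 48.8 to 972 ± 25.6 CPM (SD, n = 2). The other elongation factor genes of the list, Eef1a1 (0.04), Eef1b2 (-0.08) and Eef2 (0.15), did not pass. The 4 that rose are not factors: the small-nucleolar-RNA hosts Gas5 (0.68, adjusted p = 0.000547) and Snhg1 (0.36, 0.0128), the filament gene Vim (0.28, 0.0196) and Hnrnpa1 (0.24, 0.0411). Calls lost when 1 library was left out were Eif3e (without NC 1 -0.30, 0.0556; without KO 1 -0.19, 0.155), Nap1l1 (highest without NC 1, 0.117; also without NC 2, 0.0779, or KO 2, 0.0650), Snhg1 (without NC 2, 0.261, or KO 2, 0.138), Vim (without NC 1, 0.133, or NC 2, 0.0542) and Hnrnpa1 (without any 1 library, 0.0687 to 0.251).

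Regulators of ribosomal protein synthesis were likewise mixed, with 5 of 20 higher, 4 lower and a median of 0.04. Among all genes 19.7% were higher and 18.2% lower, so this list is not shown to stand apart. The 11 not called include Rptor (-0.07), Rps6kb1 (0.11), Tsc1 (0.10), Tsc2 (0.18), Eif4ebp1 (0.01) and Deptor (0.06). Akt1, a kinase upstream of mTORC1, fell from 302 ± 0.346 to 210 ± 6.88 CPM (SD, n = 2; -0.53, edgeR adjusted p = 4.2e-05), and Rheb, the GTPase that switches mTORC1 on, from 42.8 ± 1.69 to 31.3 ± 0.0750 CPM (-0.45, adjusted p = 0.00158). Sesn2 (0.56, 7.4e-05) and Castor1 (0.61, 0.00231), which restrain mTORC1 when leucine or arginine is short, rose, as did Ddit4 (0.28, 0.0164), another restraint. Rictor, of the second mTOR complex, rose by 0.55 (0.000117), and Mtor itself by 0.31 (0.0246). Larp1, which holds TOP mRNAs, did not pass (0.02, SE 0.09), and Myc had -0.24 (adjusted p = 0.0593) while its partner Max fell by 0.45 (0.000448). Larp4, which protects mRNA tails, fell by 0.31 (0.00809) on counts and was at 0.06 on log2(TPM + 1). Calls were lost for Mtor without NC 1 (0.25, 0.178) or KO 1 (0.24, 0.151), for Ddit4 without NC 2 (0.23, 0.161) and for Larp4 without NC 1 (-0.26, 0.108).

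Of 17 listed chaperones of ribosomal proteins and quality-control genes 16 were tested, 4 fell and 1 rose, with a median of -0.08. Among all genes 18.2% were lower and 19.7% higher, so the list is not shown to stand apart. Grwd1, the chaperone of the Rpl3 protein, went from 45.0 ± 0.311 to 22.3 ± 5.01 CPM (SD, n = 2; -1.01, edgeR adjusted p = 5.1e-07), while Rpl3 mRNA had 0.07 (SE 0.09). Bccip, the chaperone of Rpl23, went from 29.7 ± 1.87 to 15.0 ± 0.318 CPM (-0.99, adjusted p = 1.3e-06), while Rpl23 had 0.18 (SE 0.10, adjusted p = 0.159). Heatr3, which imports Rpl5 into the nucleus, went from 73.3 ± 1.19 to 43.3 ± 2.04 CPM (-0.76, adjusted p = 8.9e-07), while Rpl5 had 0.10. Grwd1, Bccip and Heatr3 were called in all 16 alternatives. Pdcd2l, an Rps2 partner, fell by 0.54 (adjusted p = 0.0169) beside Rps2 itself at -0.40, and was lost without NC 1 (-0.54, 0.0655), NC 2 (-0.55, 0.0646) or KO 1 (-0.49, 0.0624). Genes of the list that did not pass include Tsr2, the chaperone of Rps26 (-0.26, adjusted p = 0.145), Aamp (-0.23, 0.0593) and Pdcd2 (-0.18, 0.318), the relative of Pdcd2l. Zfp598, a ubiquitin ligase for collided ribosomes, rose by 0.23 (adjusted p = 0.0498), lost without NC 1 (0.22, 0.190), NC 2 (0.23, 0.164) or KO 1 (0.17, 0.210).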

How the data were processed

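Total RNA of the 4 Hepa1-6 libraries was sequenced after directional library preparation, per the labels' protocols. FastQC, STAR, RSEM and DESeq2 and the build GRCm38 (mm10) are named, without roles or versions, in the submitters' processing notes. The authors deposited expected counts per gene, which RSEM shares among similar genes, per the file headers. They also deposited TPM values, per the file headers, which depend on the deposited effective length. Whether strand was used in counting is not given in the sources used here, so overlapping genes are named.

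Expected counts were rounded (totals changed by at most 0.000188%), filtered with filterByExpr (12510 genes kept), scaled by TMM (0.981 to 1.02) and compared with edgeR 4.0.16's quasi-likelihood test (R 4.3.3), two-sided, Benjamini-Hochberg over all genes, threshold 0.05. The prior degrees of freedom were 25.8, so the spread of each gene rests largely on that of other genes. Intervals are 95% and cover counting error and the spread of these libraries. The fit was tested on simulated data. Shares were compared by an exact permutation test. Alternatives used DESeq2 1.42.0, limma 3.58.1 on log2(TPM + 1) or log2(TPM + 0.1) for genes at 1 TPM or more, other scalings, the length trend (lowess span 0.3) and each library left out, where the lone library is assumed to vary like the others. Pseudogenes were matched with BLAST 2.17.0; adding the sequence-matched ones, and scaling from other genes, were chosen after seeing the data. Coordinates are GENCODE M21 on GRCm38, which matched 85 of 85 members; start windows are RefSeq on GRCm38.p6 for 63.

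Members named are the up to 8 with the lowest p per subunit and direction, the 4 highest in TPM per subunit, the stalk genes, Rpsa, Rpl5, Rpl11, paralog pairs, those under the filter and the 2 per subunit nearest each side of the threshold. Rps6, Rpl23, Rpl7a, Rpl26, Rpl34, Rps7, Rpl23a and the listed genes that are not members were named after their values were seen. Some genes are counted but not reported by name or plotted here. The members and gene lists were chosen with earlier results of these data known.

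Replicate numbers are not shown to pair the libraries: deviations of same-numbered libraries correlated at -0.0116 over all genes and -0.479 over the tested members. The members' share of counts was higher in library 1 than in library 2 in both groups (7.15% and 6.69% in NC, 6.93% and 6.47% in KO).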

Additional observations from a re-analysis of the deposited data

How the results depend on the processing

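Over 16 alternatives the named ribosomal protein genes kept their direction where called; of 528 values, 457 kept their side of the threshold, 59 lost a call and 12 gained one. Rplp2 and Rpl14 were called in all 16. On log2(TPM + 1) and log2(TPM + 0.1), limma called 2 and 2 large-subunit genes and 1 and 1 small-subunit gene, with small-subunit medians of -0.0607 and -0.0607. With the length trend removed the medians were 0.0746 (large) and 0.0344 (small), with 10 genes called in the large and 4 in the small subunit, 9 of these 14 higher. Leaving out 1 library gave 6 to 13 large-subunit and 3 to 6 small-subunit calls, medians of -0.109 to 0.0284 and -0.169 to -0.0535, and share differences of -0.452 to 0.0124 points. With the length trend removed the split of calls moved from 2 of 16 higher to 9 of 14; without NC 1 it was 3 of 9, and without NC 2 0 of 14. Among listed genes, Larp4 turned to 0.056 and 0.0565 with pseudocounts of 1 and 0.1. With the replicate number as a block, 12 large-subunit and 5 small-subunit genes were called, adding Rps25; the numbers are not shown to pair the libraries. Members with few counts, such as Rps27rt and Rpl6l, have the widest intervals, and with 2 libraries a group a difference in the share of counts cannot reach 0.05.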

Other observations

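The counts assigned to single pseudogene rows of the ribosomal proteins differed between libraries, including libraries of 1 group. Rpl15-ps3 was counted 317 and 419 times in the NC libraries and 1 and 255 times in KO 1 and KO 2, where Gm4294 had 370 and 0 (0 and 13 in NC). Both rows match Rpl15, at 100% and 99.8% identity, and RSEM shares expected counts among similar genes. The part of that sharing in the difference was not tested. The functional gene Rpl15 had 12283, 13967, 11329 and 11321 counts in the same libraries. Rows matched to members by sequence held 0.189%, 0.174%, 0.184% and 0.176% of the libraries' counts. Rpl37rt, a retrocopy listed among the members, stood at 1422, 1941, 1993 and 1586 TPM in NC 1, NC 2, KO 1 and KO 2 with an effective length of 78.3 to 86.0 bases.

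Transcripts of the mitochondrial genome took 8.13%, 7.46%, 6.78% and 8.05% of the counts in NC 1, NC 2, KO 1 and KO 2. Their share was highest in NC 1, as was that of the cytosolic ribosomal proteins, but lowest in KO 1, where the ribosomal protein share was above that of KO 2. Of the counts outside mitochondrial genes, the ribosomal protein share was 7.79%, 7.23%, 7.44% and 7.04%.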
